A study of Rattus norvegicus with 6 samples.

Results

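Mast cell transcripts were measured in 6 rat left atria, 3 from animals under rapid atrial pacing (RAP) and 3 from animals under control pacing, through 10 genes chosen by name for the proteases, receptors and histamine-forming enzyme of this cell type. Of the 10 genes, 9 (Cpa3, Cma1, Tpsab1, Tpsb2, Mcpt1, Mcpt10, Ms4a2, Kit and Hdc) had a probe set whose only symbol in the array annotation is the gene, and each of them had 1. The tenth, Mcpt2, had 0 and was not analysed here. The 9 genes were among 11237 genes whose log2 signal exceeded 5 in at least 1 array, the cut-off of the methods.

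The animals were adult male Sprague-Dawley rats with a pacing electrode implanted on the right atrium, all of them given the beta blocker atenolol in the drinking water and heparin before sacrifice. RAP was applied at a cycle length of 70 ms and control pacing at 140 ms, each for 48 hours, with the same ventricular rate in both groups. Each RAP rat and its control were operated on and paced together, so that the arrays form pairs 1 to 3, and each array holds the RNA of the whole left atrium of 1 rat. The median log2 signal of the arrays lay between 5.82 and 5.85. Markers of atrial cardiomyocytes were high in every atrium, with Nppa, the atrial natriuretic peptide, between 13.40 and 13.59, and Myl7, the atrial regulatory myosin light chain, between 13.61 and 13.76. Single atria stood apart in markers of other cells. In control 3 the 5 erythroid markers lay on average 1.88 above their means over the 6 arrays on the log2 scale, against -0.78 to -0.13 in the other atria. RAP 3 was highest (1.54) and control 1 lowest (-1.11) in the 10 adipocyte markers, and control 2 was highest in the neutrophil (1.20) and macrophage (1.00) markers, so the main results are given without each atrium in turn.

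Mast cells are tissue-resident granulocytes that mature from marrow progenitors under stem cell factor, the ligand of Kit, and settle along vessels, nerves and serous surfaces, in the heart as elsewhere. Their granules hold serine proteases with trypsin-like (tryptases) and chymotrypsin-like (chymases) cleavage, carboxypeptidase A and histamine, bound to heparin. Crosslinking of IgE on its receptor releases them. Some chymases can form angiotensin II from angiotensin I, and cardiac mast cells have been linked to fibrosis and arrhythmia of the atria. In rats, connective tissue and mucosal mast cells differ in the proteases that they store.

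Several of these genes lie side by side. Tpsab1 and Tpsb2 are neighbours on rat chromosome 10, with 0 coding genes between them in the RefSeq gene list, and Cma1, Mcpt1 and Mcpt10 lie on chromosome 15. One coding gene, Mcpt1l1, lies between Mcpt1 and Mcpt10. RefSeq lists the chymase names rMCP-I and rMCP-II both as synonyms of Mcpt1, and rMCP-I also as a synonym of Mcpt1l1, so the symbol does not settle which of these related proteases the Mcpt1 probe set measured. Close relatives can share probes, and 2 further probe sets, annotated to Mcpt10 together with other genes, were not used.

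RefSeq promoter sequences (build GRCr8) were at hand for 7 of the genes. The windows of Cpa3 and Cma1 are shown because these genes had the most similar levels across the atria of all pairs of members (Pearson r = 0.982 over 6 arrays), and that of Kit because its level varied least. Each is the 250 bases before the annotated start, 5′ to 3′ in the direction of the gene, with capitals marking AGATAA, a form of the site bound by GATA factors.
Cpa3, chr2:104673238-104673487, minus strand: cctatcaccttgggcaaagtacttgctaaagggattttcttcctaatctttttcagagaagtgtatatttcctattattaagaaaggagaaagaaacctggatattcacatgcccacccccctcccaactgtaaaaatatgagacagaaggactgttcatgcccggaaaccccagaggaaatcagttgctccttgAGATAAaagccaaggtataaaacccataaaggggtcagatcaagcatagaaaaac
Cma1, chr15:33390134-33390383, minus strand: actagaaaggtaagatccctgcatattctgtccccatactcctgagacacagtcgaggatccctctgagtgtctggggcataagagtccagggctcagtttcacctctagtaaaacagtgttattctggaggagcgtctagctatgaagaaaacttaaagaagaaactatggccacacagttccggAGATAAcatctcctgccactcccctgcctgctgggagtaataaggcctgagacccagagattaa
Kit, chr14:32978813-32979062, minus strand: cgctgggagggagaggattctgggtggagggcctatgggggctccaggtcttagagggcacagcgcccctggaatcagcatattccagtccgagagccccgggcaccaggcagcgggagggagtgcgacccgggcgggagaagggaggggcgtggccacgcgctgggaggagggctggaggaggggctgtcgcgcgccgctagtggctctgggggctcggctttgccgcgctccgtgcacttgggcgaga
The letters AGATAA occurred once in the window of Cpa3, 55 bases before the start, and once in that of Cma1, 64 bases before it, counted from the first base of the motif. They were found in 2 of the 7 windows, and in 10.3% of 33469 rat windows of this length (both strands searched). Other forms of the GATA site were not searched, so windows without AGATAA may hold one. CANNTG, the E-box that MITF and other helix-loop-helix factors bind, occurred in 5 of 7 and in 65.5% of all windows. Its forms CACGTG and CATGTG, which overlap it, occurred in 0 and 2 of the 7 windows, against 5.59% and 12.1% of all. The window of Kit was rich in G and C (70.8%, against 40.8% for Cpa3, 48% for Cma1 and a median of 51.2%). A match of letters is a description of the sequence and not a bound site.

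After RAP, 0 of the 9 mast cell genes had risen or fallen relative to control pacing. Rose and fell are used here for genes with a fold change over 1.3 and an unadjusted p below 0.05, the limits that the methods give, in a limma fit that blocks on the pair. Of all 11237 genes, 6.39% passed (330 or 2.94% rose, and 388 or 3.45% fell), and 774 had an unadjusted p below 0.05, but after adjustment 0 remained below that level. Among the 9 mast cell genes 0 had an unadjusted p below 0.05, and the paired t-test of the methods passed 0 as well. The groups overlapped in all 9 genes, whereas they did not overlap in 15.4% of all genes. The median change of the 9 genes, RAP minus control on the log2 scale, was -0.56, against -0.01 over all genes. In bulk tissue, a difference in the number of mast cells and one in RNA per mast cell cannot be told apart.

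Within pairs 2 and 3 the 9 genes shared a direction, but it was opposite in these pairs. In pair 2 all 9 genes were lower after RAP (median difference -2.11), in pair 1 7 were lower and 2 higher (median -0.74), and in pair 3 all 9 were higher (median 1.37). Over all genes the median differences were -0.002, -0.02 and 0.01 in pairs 1, 2 and 3. None of the 9 genes moved the same way in all 3 pairs, while 28.4% of all genes did. The 9 genes are measured in the same RNA, so they are not 9 independent observations of a pair.

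The granule carboxypeptidase Cpa3, which trims peptides and venoms, had log2 signals of 7.71, 7.68 and 5.58 in controls 1, 2 and 3 and of 7.14, 4.69 and 7.70 in RAP 1, 2 and 3. Both groups thus held high and low atria, and RAP 2 and control 3 were the lowest. Within pairs Cpa3 differed by -0.57, -2.99 and 2.12. The change was -0.48 (SE 0.97, 95% interval -3.00 to 2.04, limma adjusted p = 0.911), so that the interval spans large differences in both directions.

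The chymase Cma1, the rat enzyme also known as Mcpt5, ran closely with Cpa3. Its log2 signals were 7.90, 8.08 and 5.62 in the controls and 7.04, 5.23 and 7.65 in the RAP atria. Again RAP 2 was lowest and control 3 next, and the other 4 atria stood clearly higher. The differences were -0.85, -2.85 and 2.03 in pairs 1, 2 and 3, with a change of -0.56 (SE 0.93, interval -2.98 to 1.86, limma adjusted p = 0.893).

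Mcpt1, a chymase, varied more than any of the other members. It stood at 7.70, 9.49 and 5.97 in the controls and at 6.06, 4.64 and 6.94 in the RAP atria, a range of 4.85 on the log2 scale that ranked 6th among 11237 genes. Control 2 was the highest atrium and RAP 2 the lowest, so that pair 2 held both extremes (difference -4.85, against -1.64 in pair 1 and 0.96 in pair 3). The change was -1.84 (SE 1.1, interval -4.71 to 1.02, limma adjusted p = 0.729).

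Mcpt10, another serine protease of the chymase locus, followed another order. Its log2 signals were 5.61, 8.40 and 6.24 in the controls and 5.68, 4.98 and 7.62 in the RAP atria. Control 2 and RAP 3 were high, and control 1, which was among the highest for Cpa3, Cma1 and both tryptases, was here among the low ones. Within pairs Mcpt10 differed by 0.07, -3.43 and 1.37, with a change of -0.66 (SE 0.94, interval -3.11 to 1.78, limma adjusted p = 0.872).

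The tryptases, which are stored as tetramers on heparin and cleave the receptor PAR-2, split the pairs in the same way. Tpsab1 had log2 signals of 7.72, 6.73 and 5.51 in the controls and 6.33, 4.73 and 6.80 in the RAP atria, with differences of -1.40, -2.0 and 1.29. Tpsb2 was measured at 6.75, 6.23 and 5.34 in the controls and at 6.09, 5.38 and 6.83 in the RAP atria, with differences of -0.66, -0.85 and 1.49. In both genes control 3 and RAP 2 were the low atria, and the range was 2.99 for Tpsab1 and 1.49 for Tpsb2. The change was -0.70 for Tpsab1 (SE 0.67, interval -2.44 to 1.04, limma adjusted p = 0.813). For Tpsb2 it was -0.01 (SE 0.50, interval -1.32 to 1.3, limma adjusted p = 0.997).

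**Figure D1:**
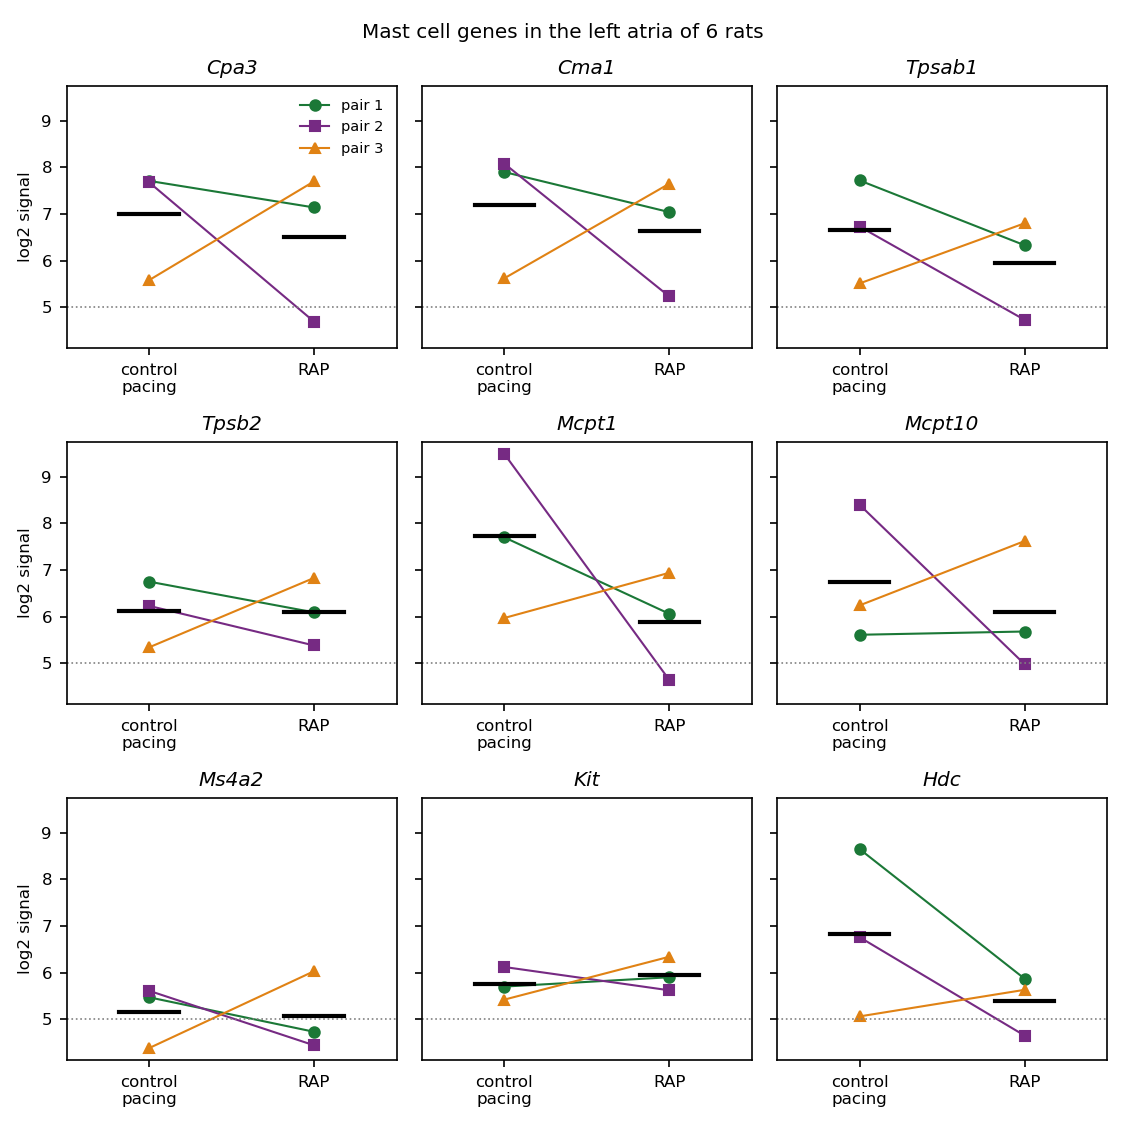
Log2 signal (y axis) of the 9 mast cell genes in the 6 left atria, with control pacing on the left and RAP on the right of each panel. Coloured lines join the atria of a pair, black bars are group means and the dotted line marks the signal level of 5. In every panel the line of pair 3 goes up and that of pair 2 goes down.

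Ms4a2, the beta chain of the high-affinity IgE receptor, exceeded a log2 signal of 5 in 3 of 6 atria. Its log2 signals were 5.47, 5.61 and 4.38 in the controls and 4.73, 4.44 and 6.03 in the RAP atria. RAP 3 was highest, and control 3 and RAP 2 were lowest, both short of a signal of 5, so that differences involving them are less certain in size. The differences were -0.74, -1.17 and 1.65, and the change was -0.09 (SE 0.58, interval -1.61 to 1.43, limma adjusted p = 0.972).

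Kit, the receptor for stem cell factor, which progenitors, melanocytes and interstitial cells also carry, had the smallest range over the 6 arrays. It stood at 5.70, 6.12 and 5.42 in the controls and at 5.90, 5.62 and 6.34 in the RAP atria. The order resembled that of Ms4a2, with RAP 3 highest and control 3 lowest, but the range was 0.92. Within pairs Kit differed by 0.20, -0.50 and 0.92, and its change of 0.21 (SE 0.29, interval -0.56 to 0.97, limma adjusted p = 0.872) was the only one above 0 among the 9.

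Hdc, histidine decarboxylase, which makes histamine and is also expressed by basophils and other myeloid cells, had its own order. Its log2 signals were 8.65, 6.76 and 5.06 in the controls and 5.87, 4.65 and 5.63 in the RAP atria. Control 1 was far above the others, and RAP 3, which was high for most proteases, lay below RAP 1. The differences were -2.78, -2.11 and 0.57. With a change of -1.44 (SE 0.67, interval -3.20 to 0.32, limma adjusted p = 0.699, unadjusted 0.0882), Hdc came nearest to the thresholds of the 9 genes, but its interval included 0.

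**Figure D2:**
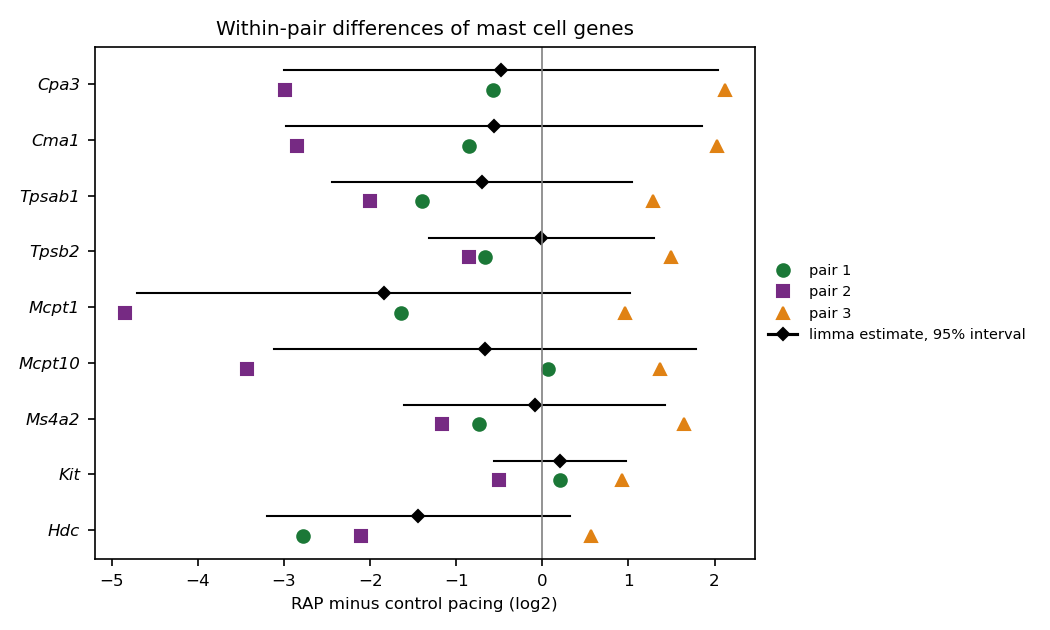
RAP minus control pacing on the log2 scale (x axis) for the 9 mast cell genes, with 1 symbol per pair and, above the symbols, the limma estimate (diamond) with its 95% interval (line). Pair 3 lies right of 0 and pair 2 left of 0 in all 9 genes, and every interval includes 0.

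The order of the atria can be summed over the genes. RAP 2 was the lowest atrium in 6 of 9 genes and the second lowest in the other 3. Control 3 was lowest in those 3 (Tpsb2, Ms4a2 and Kit) and second lowest in 5, the exception being Mcpt10. Control 2 was among the highest 3 in all 9, RAP 3 in 8 and control 1 in 7. As the mean deviation of the 9 genes from their own means over the 6 arrays, the atria stood at 0.97 in control 2, 0.76 in control 1, 0.58 in RAP 3, -0.17 in RAP 1, -0.80 in control 3 and -1.34 in RAP 2. Each atrium is 1 array with no error of its own, so neighbours in this order cannot be separated.

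Of the 9 genes, 6 were among the most variable on the arrays. The range over the 6 arrays had a median of 0.56 over all genes and a 99th percentile of 2.84, which Cpa3 (3.02), Cma1 (2.85), Tpsab1, Mcpt1, Mcpt10 (3.43) and Hdc (4.0) exceeded. Ms4a2 and Tpsb2 lay above the 90th percentile of 1.3, and Kit did not. Since RAP 2 lay under the signal level of 5 for Cpa3, Tpsab1, Mcpt1, Mcpt10, Ms4a2 and Hdc, the lower end of these ranges is uncertain.

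**Figure D3:**
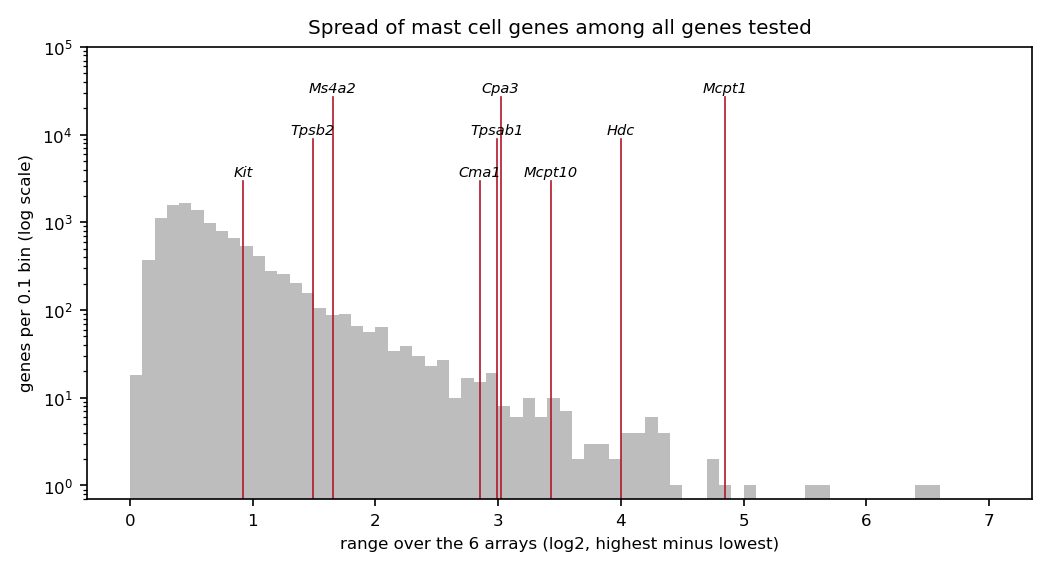
Number of genes (y axis, log scale) by their range over the 6 arrays (x axis, log2, bins of 0.1) for the 11237 genes tested, with the 9 mast cell genes as red lines. Of the 9, 6 lie beyond 2.84, the 99th percentile, and Kit, at 0.92, lies nearest to the bulk of the genes.

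The genes were not equally alike in their course over the atria. Over the 36 pairs of members the Pearson r across the 6 arrays had a median of 0.721 and ran from 0.12 to 0.982, and 7 pairs exceeded 0.9. These 7 joined Cpa3, Cma1, Tpsab1 and Tpsb2 to one another, and Tpsb2 to Ms4a2. The lowest values were those of Hdc with Mcpt10 (0.12) and with Kit (0.138), and Mcpt10 was nearest to Mcpt1 (0.779). These correlations rest on the same 6 arrays for every gene and are given as a description.

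The result depended on which pair and which atrium entered. Without pair 3, 7 of the 9 genes fell (Cpa3, Cma1, Tpsab1, Tpsb2, Mcpt1, Ms4a2 and Hdc) and 0 rose, where 12.7% of all genes fell. Hdc was then at -2.45 (SE 0.22), Mcpt1 at -3.25 (SE 0.81), Cma1 at -1.85 (SE 0.52), Cpa3 at -1.78 (SE 0.62) and Tpsab1 at -1.70 (SE 0.20). This fit leaves 1 residual degree of freedom, and the smallest limma adjusted p among the 9 was 0.131, shared by Tpsab1, Tpsb2, Ms4a2 and Hdc. With control 3 alone left out and no block, 2 genes fell, Hdc (-2.32, SE 0.61) and Mcpt1 (-2.72, SE 0.78), where 8.55% of all genes fell, and the median of the 9 was -1.18. Leaving out RAP 3 instead moved the median nearly as far, to -1.08, with 0 genes past the thresholds. The median was 0.15 without RAP 2, -0.12 without control 2, -0.17 without control 1 and -0.76 without RAP 1, again with 0 genes past the thresholds. Without pair 2 the median of the 9 turned to 0.46, and without pair 1 it was -0.41, with 0 genes past the thresholds in either case. Array weights were 4.91 for the arrays of pair 1, 0.623 for pair 2 and 0.327 for pair 3, so the weighted fit rested mostly on pair 1. In it 3 genes fell (Tpsab1, Mcpt1 and Hdc), where 13.3% of all genes fell. With 3 pairs, the smallest two-sided p of an exact sign-flip test is 0.25.

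Other genes of mast cell biology were taken as lists from textbook knowledge. Of 19 further granule proteases of the chymase and tryptase loci, 11 had a probe set under their symbol alone. Only 5 were above the signal filter, of which 1 rose and 0 fell. The gene that rose, Gzmb, is a granzyme of cytotoxic lymphocytes (log2 change 0.42, SE 0.15), and it failed the paired t-test of the methods and the fit with any one of the pairs left out. Mcpt1l1, the neighbour of Mcpt1, was looked up after its values were seen. It had log2 signals of 9.72, 9.72 and 7.76 in the controls and 9.22, 6.76 and 9.99 in the RAP atria, the order of Cpa3 and Cma1 in that control 3 and RAP 2 were low.

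Of 21 genes of the IgE receptor and its signaling, 20 were tested and 0 rose or fell (median change -0.17). Fcer1a, the IgE-binding chain, which like Ms4a2 is largely restricted to mast cells and basophils, had log2 signals of 5.92, 5.17 and 5.13 in the controls and 5.50, 4.59 and 5.18 in the RAP atria. RAP 2 was again lowest, but control 3 was level with control 2. The change of Fcer1a was -0.32 (SE 0.17, limma adjusted p = 0.723).

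Of 18 genes for stem cell factor, cytokine receptors and transcription factors, 16 were tested, and 0 rose and 1 fell. Il3ra, the alpha chain of the interleukin-3 receptor, fell by 0.47 on the log2 scale (SE 0.15), with -0.24, -0.60 and -0.57 in pairs 1, 2 and 3, and it failed the paired t-test and the fit with any one of the pairs left out. Kitlg, stem cell factor itself, differed by -0.002 (SE 0.15). Il1rl1, the receptor for interleukin-33 on mast cells and other immune cells, split the pairs as the proteases did (-0.77, -0.93 and 1.20).

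Of 21 genes of granule storage and secretion, 19 were tested and 2 fell. Vamp8, a vesicle protein of granule fusion, fell by 0.68 (SE 0.14), with -0.75, -0.79 and -0.51 in the pairs, and it did not pass without pair 1 (-0.65). Gusb, the lysosomal beta-glucuronidase, fell by 1.28 (SE 0.47), but its pairs were uneven (-2.21, -1.71 and 0.07), and without control 1 it was at -0.72 and did not pass. Gusb also failed the paired t-test of the methods, the fit with pair 1 or pair 2 left out and the fit with any other single array left out except control 3. Neither gene is restricted to mast cells. Ndst2, which sulfates the heparin of mast cell granules, differed by -0.41 (SE 0.22) and Srgn, the core protein that carries it, by 0.08 (SE 0.15), and neither passed.

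Among 11 genes of lipid mediators and amines, 0 rose or fell (median -0.27). Of 8 genes for the breakdown and receptors of histamine, 7 had a probe set of their own, 4 were tested and 1 rose. Maoa, a mitochondrial monoamine oxidase that also acts on a histamine metabolite, stood at 8.93, 9.09 and 9.25 in the controls and at 10, 9.95 and 9.77 in the RAP atria. All 3 RAP atria lay above all 3 controls, unlike in any of the 9 mast cell genes. Its change was 0.82 (SE 0.16, limma adjusted p = 0.699), and it passed the thresholds under every alternative that was run. Maoa is expressed by cardiomyocytes and is no mast cell marker. The receptors Hrh1, Hrh2 and Hrh3 differed by -0.03, -0.07 and -0.01, with SEs of 0.13, 0.18 and 0.14, and did not pass.

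Of 19 surface receptors of mast cells, 14 had a probe set of their own and 13 were tested. Those tested had a median of -0.49, and 0 rose or fell. Of 10 genes listed for targets of the granule proteases and for angiotensin II, 9 were tested and 1 fell. This was Agtr1a, the angiotensin II receptor type 1a, which is a receptor and not a cleaved target. It had log2 signals of 7.84, 7.88 and 8.77 in the controls and 7.29, 6.61 and 7.28 in the RAP atria, so that the groups did not overlap and control 3 was the highest atrium. The change was -1.1 (SE 0.22), and by the paired t-test of the methods Agtr1a did not pass. Ace, which forms angiotensin II, differed by -1.03 (SE 0.43), with -0.69, -2.27 and -0.13 in the pairs, and did not pass. Angiotensin II itself was not measured.

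Markers of other cells that the atrium could hold were set beside the mast cell genes. Basophils share Hdc and the IgE receptor with mast cells. Their protease Prss34 lay between 5.02 and 5.18 in the 6 atria, close to the filter level of 5. Mcpt8, the other basophil protease, was below the signal filter. The other basophil markers tested were Il3ra, between 7.09 and 7.69, and Gzmb, between 6.66 and 7.41. Whether basophils were present was not tested. Macrophage markers (14 genes) followed a course similar to that of the mast cell genes. Their mean deviations were 0.16, 1.00 and -0.40 in the controls and -0.37, -0.59 and 0.21 in the RAP atria. Fibroblast markers (11 genes) stood at 0.16, 0.69 and -0.33 and at -0.21, -0.70 and 0.39. Neutrophil markers (9 genes) stood at -0.36, 1.20 and 0.02 and at -0.64, -0.55 and 0.32. In the means of these 3 lists the RAP atrium was lower in pairs 1 and 2 and higher in pair 3, as for the mast cell genes. Their mean differences within pairs were -0.53, -1.59 and 0.61 for macrophages, -0.37, -1.39 and 0.72 for fibroblasts and -0.27, -1.75 and 0.30 for neutrophils, against -0.93, -2.31 and 1.38 for the mast cell genes. The neutrophil genes were divided in pair 1, where 5 were lower and 4 higher after RAP. Whether the mast cell genes differed beyond these lists was not tested.

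The other cell type lists had other signs over the pairs. The mean of the adipocyte markers (10 genes) was higher after RAP in all 3 pairs (0.66, 0.32 and 0.96). The mean of the mesothelial and epicardial surface markers (6 genes) was lower in all 3 (-1.21, -0.51 and -0.66). Atrial cardiomyocyte markers (7 genes) differed on average by 0.30, 0.44 and 0.03. Single genes kept the same sign in all 3 pairs in 8 of 10 adipocyte, 3 of 6 mesothelial and 4 of 7 cardiomyocyte markers. Erythroid markers (5 genes) differed by -0.02, 0.65 and -2.54, the last through control 3. T, B and NK cell markers (10 genes) differed by 0.45, -0.57 and 0.08 and endothelial markers (8 genes) by 0.32, -0.18 and -0.14. Past the thresholds were 5 adipocyte markers, led by Thrsp, Car3, Adipoq and Cidec, and 2 cardiomyocyte markers (Myh6 and Pam) that rose, and 3 mesothelial markers (Prg4, Wt1 and Msln), 1 macrophage marker (Vsig4) and 1 neutrophil marker (Lcn2) that fell. By the paired t-test of the methods, Prg4 and Msln passed and the other 9 of these named genes did not. With no block on the pair, Thrsp, Car3, Adipoq, Cidec and Wt1 did not pass. Of the T, B and NK cell, fibroblast, endothelial, erythroid, and melanocyte and interstitial Kit cell lists, 0 genes passed, and of the 3 basophil markers tested Gzmb and Il3ra did, as above. The part of these cell types in the values of the mast cell genes was not tested.

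**Figure D4:**
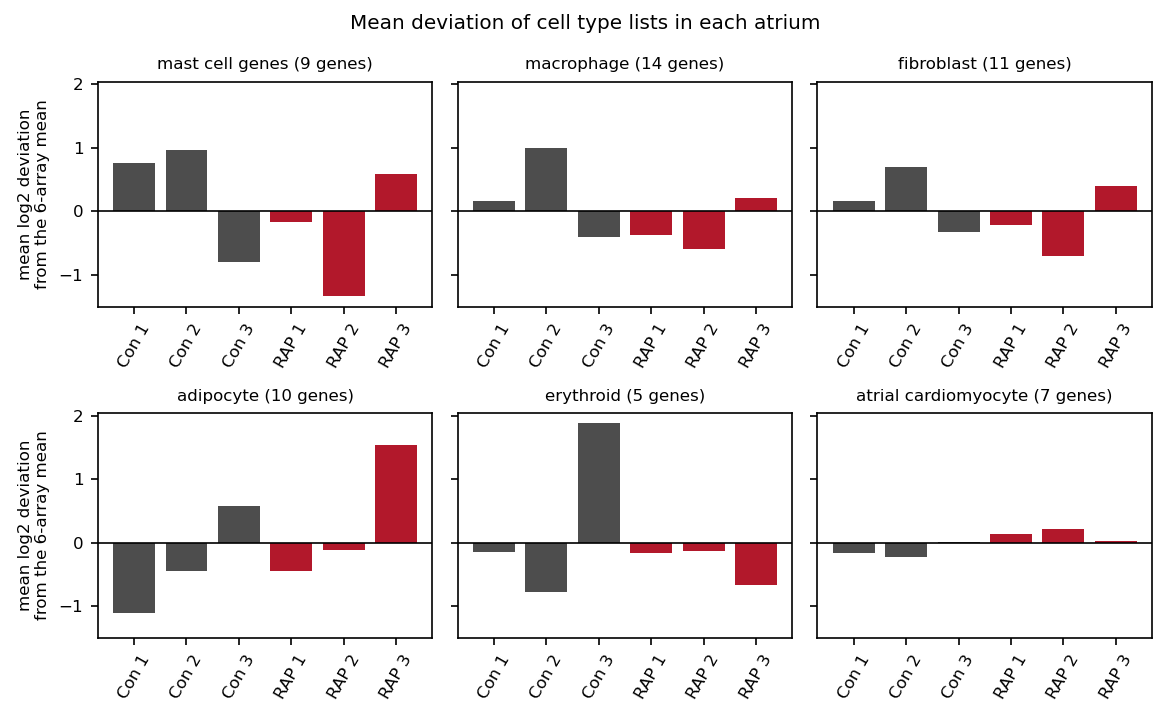
Mean log2 deviation of 6 marker lists from their genes' means over the 6 arrays (y axis), with 1 bar per atrium, controls in grey and RAP in red. The mast cell bars are lowest in RAP 2 (-1.34) and control 3 (-0.80), the erythroid bar is highest in control 3 (1.88), and the atrial cardiomyocyte bars lie between -0.22 and 0.22.

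The genes most like the mast cell genes in their course over the 6 arrays were sought among the other 11228 genes, by the Pearson r with the mean deviation of the 9. The 8 with the highest r (0.986 to 0.992) were Loxl2, a lysyl oxidase that crosslinks collagen, Chd3, a chromatin remodeler, Rhoj, a small GTPase of endothelium, Antxr1, a collagen-binding surface receptor, Alox5, the 5-lipoxygenase of leukotriene synthesis, Madd, Igtp, an interferon-inducible GTPase, and Mvk, an enzyme of isoprenoid synthesis. Loxl2 stood at 8.43, 8.41 and 6.87 in the controls and at 7.27, 6.23 and 8.25 in the RAP atria. Alox5, the only one of the 8 on the mast cell lists, stood at 7.56, 7.92 and 6.58 and at 6.90, 6.06 and 7.71. In both, control 3 and RAP 2 were the low atria. Over 6 arrays, 3.73% of the other genes reached an r of 0.9 and 3.56% reached -0.9 or below. Of the members themselves, Cma1 had the highest r with the mean of the other 8 (0.982) and Mcpt10 the lowest (0.587).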

How the data were processed

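RNA from the left atria of 6 rats was hybridized to 1 GeneChip Rat Gene 1.0 ST array each. The authors deposited 1 log2 signal for each probe set and array, made in Partek with robust multiarray averaging (RMA: background correction, quantile normalization and a summary of the probes on the log2 scale). The Partek version and the genome build are not given in the sources used here. No further normalization was applied in the reported results.

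Symbols came from the array annotation, in which 15310 of 29214 probe sets carry 1 symbol, 323 several and 13581 none. Probe sets that did not exceed a log2 signal of 5 on any array were dropped (19907 were kept), and each of 11237 genes is its probe set with the highest mean. RAP and control pacing were compared on all kept probe sets with limma 3.58.1 in R 4.3.3, blocking on the pair (2 residual and 2.76 prior degrees of freedom), and p-values were adjusted by Benjamini and Hochberg over the 11237 genes. The thresholds of the methods were used (unadjusted p under 0.05, fold change above 1.3). SEs are limma's moderated ones, and intervals are at 95%. The scripts were tested on simulated data. The number of arrays limits the precision. The smallest two-sided p of an exact permutation test of 3 against 3 is 0.1.

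The pairing comes from the labels and the methods. The deviations of paired arrays from their group means correlated at 0.223, -0.24 and -0.32 across probe sets in pairs 1, 2 and 3. On this measure the atria of pairs 2 and 3 showed no likeness within the pair. The paper, by contrast, reports clear likeness within pairs in a principal component analysis that it does not show. The block follows the design, and counts without it are given below.

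The members, gene lists and tests were chosen with earlier results of these data known. Named in the text are all members with a probe set of their own, up to 4 genes per list past the thresholds and the 8 genes most like the members in their course. Genes named beyond this rule were chosen after their values were seen. Promoter windows and gene names are from RefSeq (GRCr8), where 9 of 9 members matched by gene ID.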

Additional observations from a re-analysis of the deposited data

How the results depend on the processing

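The count of 0 mast cell genes past the thresholds held with no replicate block, by the methods' paired t-test, with a variance trend, with no filter or a filter at 6, with the 3 further scalings and with the mean over probe sets. With array weights it was 3 (Tpsab1 -1.31, Mcpt1 -1.84 and Hdc -2.52, all lower, smallest limma adjusted p = 0.0305, where 1884 of all genes had one under 0.05). These weights were 4.91 for the arrays of pair 1, 0.623 for pair 2 and 0.327 for pair 3. Leaving out a pair or an array gave between 0 and 7 (7 without pair 3, 2 without control 3). Over all genes the count was 718, with no replicate block 870, by the methods' paired t-test 234, with array weights 2650, and between 164 (without pair 1) and 2488 (without pair 3) with a pair or an array left out. The median change of the 9 genes stayed between -0.68 and -0.54 where no array was left out, and lay between -1.70 and 0.46 otherwise.

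In these leave-outs the change ran from -1.78 to 0.78 for Cpa3, from -1.85 to 0.59 for Cma1, from -0.76 to 0.41 for Tpsb2, from -1.68 to 0.72 for Mcpt10, from -0.96 to 0.46 for Ms4a2 and from -0.15 to 0.56 for Kit, so that each of these turned. Tpsab1 (-1.70 to -0.05), Mcpt1 (-3.25 to -0.34) and Hdc (-2.45 to -0.53) did not. No member turned in the 10 settings that kept every array. Of the other named genes, these turned in at least 1 leave-out: Cidec ran from -0.22 to 1.25, Loxl2 from -1.67 to 0.11, Chd3 from -0.51 to 0.05, Antxr1 from -1.18 to 0.05, Alox5 from -1.26 to 0.23, Madd from -0.33 to 0.01, Igtp from -0.54 to 0.03, Mcpt1l1 from -1.73 to 0.86, Kitlg from -0.28 to 0.16, Il1rl1 from -0.85 to 0.40, Srgn from -0.07 to 0.23, Hrh1 from -0.09 to 0.05, Hrh2 from -0.25 to 0.11 and Hrh3 from -0.08 to 0.10. With every array kept, Kitlg turned with a further quantile normalization (0.05) and with cyclic loess (0.01), and Hrh1 (0.003) and Hrh3 (0.10) with array weights. Loxl2, Rhoj, Antxr1, Alox5, Fcer1a, Il1rl1, Ndst2 and Ace passed the thresholds with array weights and without pair 3, all lower. The cause of these shifts was not tested beyond the fewer arrays that leaving one out gives.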
